A study of Mus musculus with 6 samples.

Results

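The genes described here encode the structural extracellular matrix of mouse ovarian cancer cells, that is, collagens, laminins, fibulins, fibrillins, latent TGF-beta binding proteins, lysyl oxidases, adhesive glycoproteins and proteoglycans. They were chosen by name alone, with symbols such as Col, Lam, Fbln, Ltbp, Loxl, Thbs, Gpc and Sdc followed by their family numbers. The name rule used no measured value, although it was set with earlier results of these data known. Applied to the deposited table, which holds only genes that the authors had called different, the rule gave 56 members among 7320 genes. RNA sequencing compared ID8 with KMF tumorspheres, which are cell clusters grown for 5 days in suspension in serum-free PromoCell XF medium, with 3 libraries of each line. ID8 is a line of spontaneously transformed C57Bl6 ovarian surface epithelial cells, and KMF, labelled ID8-IP, was recovered from the ascites of C57Bl6 mice bearing ID8 cells. KMF is 1 derived line, in which the study described DNA gains that include Myc and the focal adhesion kinase gene Ptk2 and also DNA losses, so the comparison is of these lines and not of ascites-derived cells in general. ID8 was at passage 23, 24 and 35 in replicates 1 to 3 and KMF at passage 14, 17 and 22, and since every KMF passage lies below every ID8 passage, line and passage cannot be told apart.

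The matrix is built in layers with separate parts. Basement membranes are sheets of collagen IV and laminin networks, joined by nidogen, to which epithelial cells attach through integrins. Laminins are cross-shaped trimers of 1 alpha, 1 beta and 1 gamma chain, and collagens are trimers of alpha chains, so a trimer needs each of its chains. The interstitial matrix holds fibrillar collagens, beaded collagen VI filaments and elastic microfibrils. Lysyl oxidases cross-link collagen and elastin, while glypicans and syndecans carry heparan sulfate on the cell surface. The measurements are of RNA in bulk samples, in which fewer cells of a type and less RNA per cell cannot be told apart.

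The libraries held 23108407 to 33212313 fragments on genes, and 3 counts in a library, the floor used for a gene without reads, equal 0.0903 to 0.130 CPM (counts scaled to library size). Every gene of the deposited table had already been called different between the lines by the authors on the same 6 libraries, so a call made here is not independent evidence of a difference. Of 106 mouse genes whose names fit the rule in the GENCODE M21 annotation, 50 are outside the table and were not analysed here, among them Fn1, Col1a2, Col4a2 and Hspg2. Of 9 ovarian surface epithelial and mesothelial markers, 5 were listed, and their summed FPKM (fragments scaled to gene length and to library size) was 135.8 to 197.8 in ID8 and 145.6 to 194.2 in KMF. Within that list Wt1 was at 108 ± 12.1 FPKM in ID8 and 77.3 ± 13.2 in KMF (mean ± SD, n = 3). Msln was higher in KMF, at a mean of 34.3 FPKM in ID8 and 91.55 in KMF. Upk3b, Krt7 and Lrrn4 were lower, from means of 25.3, 1.57 and 1.72 FPKM in ID8 to 1.70, 0.260 and 0.0980 in KMF. The overlap of the sums thus hides opposite changes within the list. Of 8 fibroblast markers 2 were listed, with a summed FPKM of 42.94 to 55.65 in ID8 and 154.1 to 173.6 in KMF, which was carried by S100a4, while Pdgfra fell. Of 10 leukocyte markers only Cd74 was listed, at sums of 0.857 to 1.59 and 0.215 to 0.391 FPKM, and of 6 endothelial markers only Kdr, which was at 0 in all 3 KMF libraries. The part of other cell types in the values below was not tested.

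To determine which matrix genes differed between the lines, counts were compared by edgeR's quasi-likelihood test with Benjamini-Hochberg adjustment over 17359 genes. Of 51 members with enough counts to be fitted, 48 were called (94.1%), against 92.9% of all fitted genes in the table, so the share called is close to the background. A total of 19 members were higher and 29 lower in KMF, or 37.3% and 56.9%, against 45.4% and 47.5% of all genes. Calls of at least 2-fold numbered 15 higher and 23 lower, which is 74.5% of fitted members against 40.5% of all genes. The median log2 fold change of KMF over ID8 was -0.85 for the members and -0.23 for all genes, and the median size of the change was 1.83 and 0.79. Members also varied more within a line, as described below, and a more variable gene needs a larger change to be called and so listed. The part of this in the sizes of change was not tested. With only genes of a mean of at least 1 CPM, the medians were -0.87 for the members and 0.21 for all genes, so the sign of the latter depends on the filter. The other 5 members had too few counts for the fit, and with these and Lama1 set at their counting floor the median over all 56 members was -1.05. The ID8 and KMF libraries did not overlap for any of the 56 members, against 96.5% of all 7320 listed genes and 96.6% of all fitted genes without overlap in CPM. Thus the members split into a larger group that was lower and a smaller group that was higher in KMF, and the split followed neither the collagens nor the laminins as a whole.

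**Figure D1:**
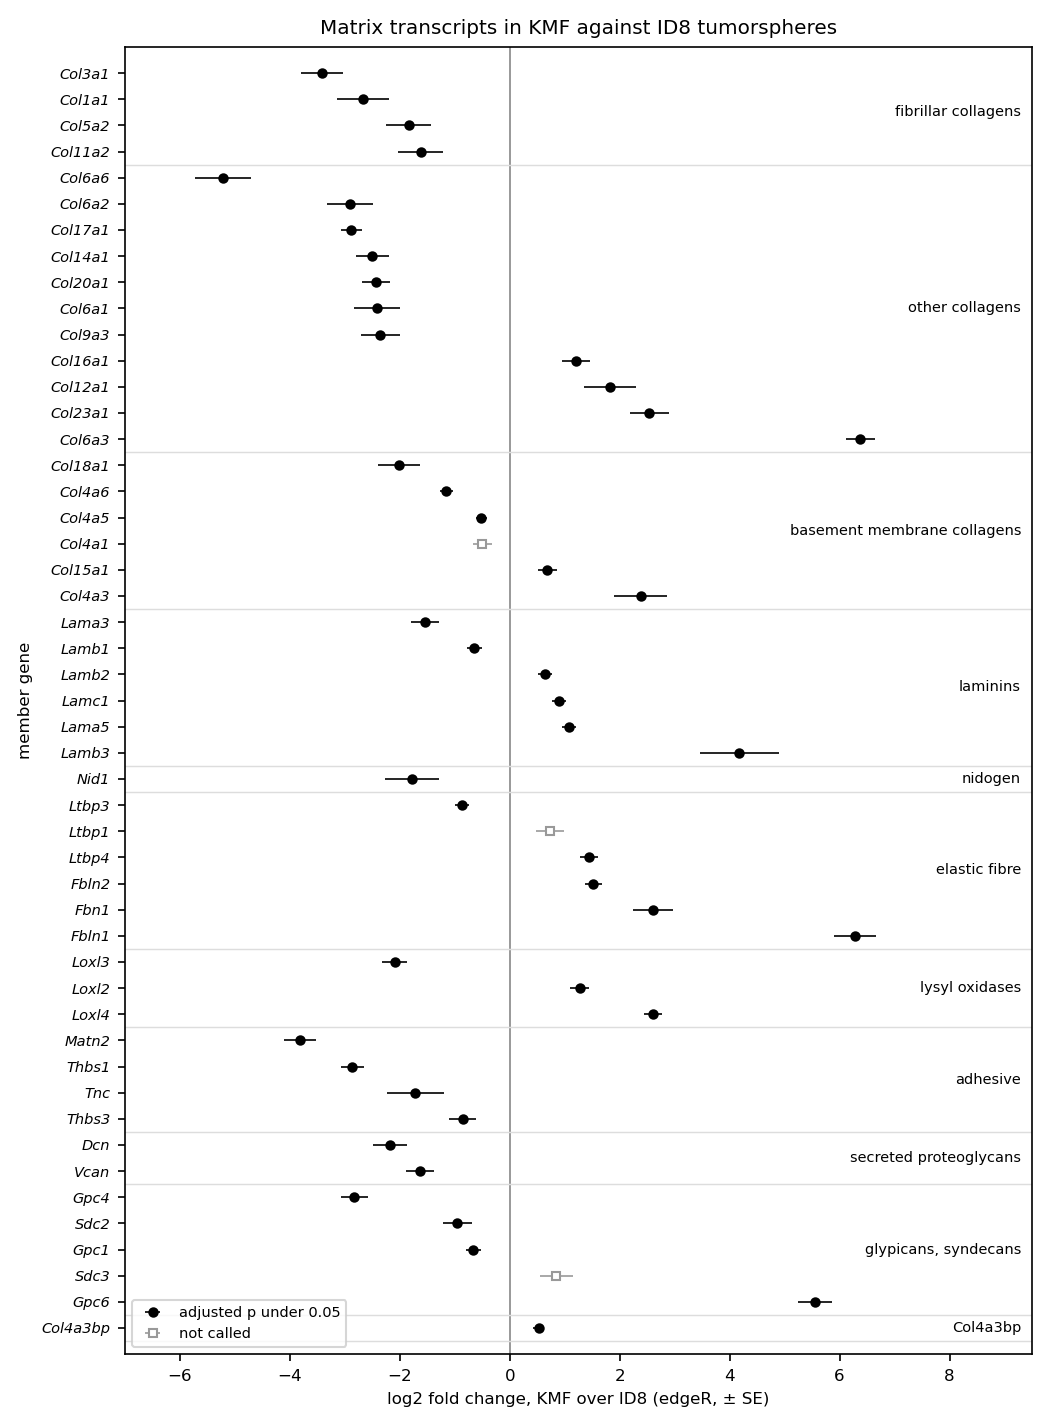
Log2 fold change of KMF over ID8 (horizontal axis, edgeR estimate with its SE as bars) for the fitted members described in the text except Lama1, grouped by role, with open squares for the 3 that were not called. Fibrillar collagens and adhesive glycoproteins lie below 0, with medians of -2.25 and -2.29, while Col6a3, Fbln1 and Gpc6 lie farthest above 0, at 6.38, 6.27 and 5.55.

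Fibrillar collagens, which form the tensile fibers of interstitial matrix, were lower in KMF for all 4 members that could be fitted. Of all fitted genes, 47.5% were lower. Col3a1 (ENSMUSG00000026043, chr1:45311538-45349706), the chain of collagen III, was at 10.8, 10.7 and 15.3 FPKM in ID8 and at 1.69, 1.18 and 0.514 FPKM in KMF. Every KMF library was below every ID8 library, and the log2 fold change was -3.42 ± 0.39 (SE, edgeR adjusted p = 0.000356). Col5a2, a chain of collagen V that sets fiber width, lies on the other strand, with 24614 bases between it and Col3a1. It was at 3.12, 4.31 and 3.27 FPKM in ID8 and at 1.10, 1.44 and 0.400 FPKM in KMF, a log2 fold change of -1.83 ± 0.41 (edgeR adjusted p = 0.00917). The neighbors thus fell together. Col1a1 (chr11:94936224-94953042), the main chain of collagen I, was at 4.34, 5.87 and 1.56 FPKM in ID8 and at 0.694, 0.664 and 0.462 FPKM in KMF (log2 fold change -2.67 ± 0.47, edgeR adjusted p = 0.00296). ID8 replicate 3 was the highest ID8 library for Col3a1 and the lowest for Col1a1. Col11a2, of collagen XI, was below 0.5 FPKM in all libraries and fell by 1.62 ± 0.41 on the log2 scale (edgeR adjusted p = 0.0161), a call that was lost without ID8 replicate 1, KMF replicate 1 or KMF replicate 3 (adjusted p = 0.0738, 0.0565 and 0.0692, within 0.00433 to 0.0738 over all alternatives). Col27a1 was too low for the fit, with 19, 9 and 15 counts in ID8 and 2, 0 and 2 in KMF, a ratio of ID8 to KMF of 10.8 with a 95% exact counting interval of 3.94 to 41.6.

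**Figure D2:**
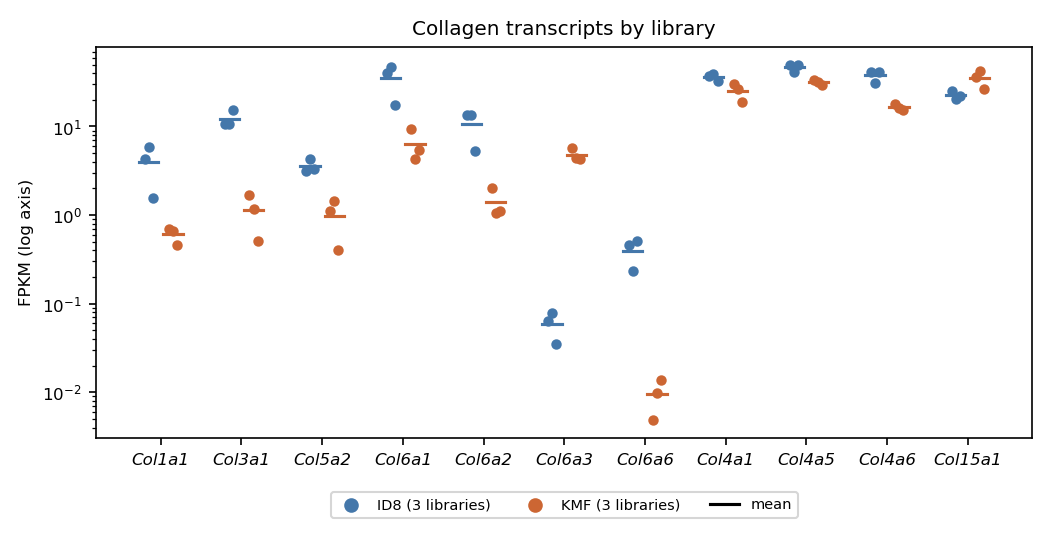
FPKM of collagen chains in each library (log axis), with ID8 and KMF as separate point colors and a line at each line's mean. Col3a1 and Col1a1 are lower in all 3 KMF libraries, Col6a1 and Col6a2 are lower together, and Col6a3 moves the other way, from 0.0347 to 0.0779 FPKM in ID8 to 4.26 to 5.73 FPKM in KMF.

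The promoter windows of the 3 collagen VI genes, whose chains moved in opposite directions, and of Col3a1, the fibrillar collagen with the largest fitted fall, are shown here. Each runs from 250 bases before to 50 bases after the gene start on RefSeq's GRCm38.p6 assembly, 5′ to 3′ on the gene's strand, at chr10:76725995-76726294 (minus) for Col6a1, chr10:76623581-76623880 (minus) for Col6a2, chr1:90843922-90844221 (minus) for Col6a3 and chr1:45311288-45311587 (plus) for Col3a1. The RefSeq start lies 124 bases from the listed gene start for Col6a1 and 0 bases from it for Col6a2, Col6a3 and Col3a1. Capitals mark matches on either strand to 5 motifs, namely TATAAA (bound by the TATA-binding protein), GGGCGG (the GC box, bound by Sp1), TGANTCA (AP-1), CACGTG (E-box, bound by Myc) and CTTTGAT (TCF/LEF).
Col6a1: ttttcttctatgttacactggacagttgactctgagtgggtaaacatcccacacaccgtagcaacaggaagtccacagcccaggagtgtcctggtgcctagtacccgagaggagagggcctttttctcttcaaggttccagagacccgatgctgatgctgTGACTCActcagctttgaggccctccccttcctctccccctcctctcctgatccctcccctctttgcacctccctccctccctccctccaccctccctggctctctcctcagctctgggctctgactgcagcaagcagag
Col6a2: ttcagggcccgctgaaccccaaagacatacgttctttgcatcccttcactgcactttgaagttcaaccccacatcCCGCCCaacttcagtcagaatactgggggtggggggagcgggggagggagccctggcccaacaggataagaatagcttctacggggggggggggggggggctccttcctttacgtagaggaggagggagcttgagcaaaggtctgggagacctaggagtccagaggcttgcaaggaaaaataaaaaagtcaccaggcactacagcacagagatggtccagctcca
Col6a3: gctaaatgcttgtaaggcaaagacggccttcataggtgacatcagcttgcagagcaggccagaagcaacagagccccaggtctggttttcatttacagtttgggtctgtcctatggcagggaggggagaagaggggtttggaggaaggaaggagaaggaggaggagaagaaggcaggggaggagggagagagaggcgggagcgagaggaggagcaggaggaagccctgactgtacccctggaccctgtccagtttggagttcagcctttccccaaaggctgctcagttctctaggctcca
Col3a1: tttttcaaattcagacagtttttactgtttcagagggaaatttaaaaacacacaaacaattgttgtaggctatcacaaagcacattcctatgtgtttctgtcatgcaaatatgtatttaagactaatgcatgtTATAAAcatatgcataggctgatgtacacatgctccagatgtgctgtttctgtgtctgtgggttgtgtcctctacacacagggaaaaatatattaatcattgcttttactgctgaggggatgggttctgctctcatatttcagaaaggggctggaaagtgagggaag
The window of Col6a1 holds a match to the AP-1 motif, that of Col6a2 to the GC box and that of Col3a1 to TATAAA, while the Col6a3 window holds none of these letters. Matches were taken anywhere in the window, and that of Col3a1 lies far before the gene start. A match is a description of the letters and not a site of binding.

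Collagen VI forms beaded filaments from alpha1, alpha2 and alpha3 chains, and its chains moved in opposite directions. Col6a1 (ENSMUSG00000001119, chr10:76708792-76726168) was at 40.1, 46.8 and 17.6 FPKM in ID8 and at 9.298, 4.32 and 5.48 FPKM in KMF (log2 fold change -2.42 ± 0.41, edgeR adjusted p = 0.00256). Col6a2, which lies 85161 bases away on the same strand, was at 13.3, 13.5 and 5.24 FPKM in ID8 and at 2.03, 1.06 and 1.12 FPKM in KMF, with -2.90 ± 0.42 (edgeR adjusted p = 0.00116). For both, ID8 replicate 3 was the lowest ID8 library and KMF replicate 1 the highest KMF library, and the lines did not overlap. Col6a3 (ENSMUSG00000048126, chr1:90765923-90843971), on another chromosome, had 19, 19 and 9 counts in ID8 and 1366, 1022 and 1428 counts in KMF. It rose 83.2-fold, or 6.38 ± 0.26 on the log2 scale (edgeR adjusted p = 7.38e-06). In FPKM, Col6a3 was at 0.0638, 0.0779 and 0.0347 in ID8, far below the alpha1 chain, and at 5.73, 4.38 and 4.26 in KMF, a level near it. The log2 ratio of Col6a3 to Col6a1 FPKM was -9.17 ± 0.17 in ID8 and -0.35 ± 0.36 in KMF (SD, n = 3), a difference of 8.82, while that of Col6a1 to Col6a2 moved by 0.46, from 1.71 ± 0.11 to 2.17 ± 0.13. Each of these ratios had a two-sided exact permutation p of 0.1, the smallest that 3 against 3 libraries allow. Col6a6, an alternative to the alpha3 chain, had 118, 49 and 114 counts in ID8 and 1, 2 and 4 counts in KMF (log2 fold change -5.22 ± 0.50, edgeR adjusted p = 0.000164). Col6a1 and Col6a2 lie on chromosome 10, where DNA losses in KMF have been described, and all 4 members on it (also Col18a1 and Dcn) fell, as did 54.3% of the 337 fitted genes there (37.4% rose, median log2 fold change -0.35). On chromosome 15, where gains were described, 1 member rose and 3 fell, while 48.1% of its 268 fitted genes rose and 44% fell. On chromosome 13, with losses, 1 member rose and 2 fell, while 50.7% of its 221 fitted genes rose and 39.4% fell. On chromosome 6, with gains, 1 member rose and 1 fell, while 31.8% of its 343 fitted genes rose and 63.8% fell. The 1 member on chromosome 8, with losses, was not called, while 31.9% of its 382 fitted genes rose and 62.6% fell. The study described these gains and losses for regions of the chromosomes, whereas genes were counted here over whole chromosomes, so some lie outside the regions. DNA copy number was not measured in these files, and its part in the levels was not tested. The alpha3 and alpha6 chains changed in opposite directions, although Col6a6 stayed at or below 0.506 FPKM in every library.

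Among the other collagens, 4 of 11 fitted members rose and 7 fell, with a median log2 fold change of -2.42. For all fitted genes, 45.4% rose and 47.5% fell, with a median of -0.23. Col14a1, which binds the surface of collagen fibers, was at 18.0, 12.7 and 16.9 FPKM in ID8 and at 1.45, 3.16 and 3.54 FPKM in KMF, a log2 fold change of -2.50 ± 0.30 (edgeR adjusted p = 0.000477). Col17a1, a transmembrane collagen of epithelial hemidesmosomes, was at 3.81, 3.19 and 3.35 FPKM in ID8 and at 0.584, 0.395 and 0.393 FPKM in KMF (-2.88 ± 0.20, edgeR adjusted p = 4.13e-05). Both fell to levels well outside the spread of the ID8 libraries. Col20a1 and Col9a3, 364345 bases apart on chromosome 2, fell, with log2 fold changes of -2.44 ± 0.26 and -2.36 ± 0.35 (edgeR adjusted p = 0.000246 and 0.00137). The laminin gene Lama5, 371930 bases from Col9a3 on its other side, moved the opposite way (log2 fold change 1.08). Col16a1, a fiber-associated collagen, was at 2.37, 3.26 and 1.92 FPKM in ID8 and rose to 7.19, 5.55 and 4.18 FPKM in KMF (1.20 ± 0.26, edgeR adjusted p = 0.00769). Col23a1, a transmembrane collagen, rose from 7, 9 and 10 counts to 36, 40 and 79 counts (2.54 ± 0.35, edgeR adjusted p = 0.000942). Col12a1 rose from 20, 11 and 5 counts to 51, 32 and 38 counts (1.82 ± 0.48, edgeR adjusted p = 0.0184). Without ID8 replicate 2 or KMF replicate 1 its log2 fold change was 1.84 and 1.53, and the call was lost (edgeR adjusted p = 0.0512 and 0.0619). On the log2(FPKM + 1) scale, which compresses low genes, its adjusted p by limma was 0.162. Of the collagens that rose here, only Col6a3 and Col16a1 were above 1 FPKM in KMF. Col8a2 was too low for the fit, with 4, 9 and 9 counts in ID8 and 1, 1 and 0 in KMF, a ratio of ID8 to KMF of 11.1 (95% exact counting interval 2.73 to 97.25).

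Of the basement membrane collagens, 2 rose, 3 fell and 1 was not called, with a median log2 fold change of -0.51. For all fitted genes, 45.4% rose and 47.5% fell, with a median of -0.23. Col4a5 (chrX:141475385-141689234) and Col4a6 (chrX:141165403-141474076) encode the alpha5 and alpha6 chains of collagen IV and lie head to head, 1308 bases apart on opposite strands. Col4a5 was at 49.7, 40.7 and 49.0 FPKM in ID8 and at 33.9, 31.7 and 29.1 FPKM in KMF (log2 fold change -0.52 ± 0.10, edgeR adjusted p = 0.00441). Col4a6 was at 41.55, 31.05 and 40.7 FPKM in ID8 and at 18.1, 16.2 and 15.2 FPKM in KMF, with -1.15 ± 0.12 (edgeR adjusted p = 0.000276). Both fell, and Col4a6 by more, so the log2 ratio of Col4a5 to Col4a6 FPKM went from 0.30 ± 0.07 in ID8 to 0.94 ± 0.03 in KMF (SD, n = 3, two-sided exact permutation p = 0.1). Their promoter windows, at chrX:141475169-141475468 (plus) and chrX:141474027-141474326 (minus) on GRCm38.p6 with 842 bases between them, are shown because the genes share this stretch.
Col4a5: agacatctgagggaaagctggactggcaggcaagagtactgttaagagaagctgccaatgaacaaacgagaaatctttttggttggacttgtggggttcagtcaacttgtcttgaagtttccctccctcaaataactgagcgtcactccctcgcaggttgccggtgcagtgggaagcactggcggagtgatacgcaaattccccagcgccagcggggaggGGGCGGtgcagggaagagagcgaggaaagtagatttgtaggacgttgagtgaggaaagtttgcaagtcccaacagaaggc
Col4a6: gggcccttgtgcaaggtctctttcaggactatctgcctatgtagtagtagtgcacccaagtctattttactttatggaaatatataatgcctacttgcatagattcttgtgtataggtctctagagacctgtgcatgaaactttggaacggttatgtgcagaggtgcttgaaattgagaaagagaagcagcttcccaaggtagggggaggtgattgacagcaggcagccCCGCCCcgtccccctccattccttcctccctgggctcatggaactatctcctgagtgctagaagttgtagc
Each window holds 1 match to the GC box, in capitals, on one strand or the other. The RefSeq start lies 34 bases from the listed gene start for Col4a5 and 0 bases from it for Col4a6.

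Col4a1, the collagen IV chain found in nearly all basement membranes, was at 37.3, 38.8 and 33.0 FPKM in ID8 and at 29.8, 26.6 and 18.7 FPKM in KMF. It did not pass the threshold (log2 fold change -0.50 ± 0.17, edgeR adjusted p = 0.0525), although it passed in 8 of 15 alternatives, among them that without KMF replicate 1 (adjusted p = 0.0205, and 0.011 to 0.147 over all). Col15a1, of collagen XV, was at 25.2, 20.4 and 22.3 FPKM in ID8 and rose to 36.6, 42.7 and 26.35 FPKM in KMF (0.68 ± 0.17, edgeR adjusted p = 0.0167), a call lost without ID8 replicate 2 (adjusted p = 0.0548). Col18a1, the precursor of endostatin, was at 1.42, 0.993 and 0.781 FPKM in ID8 and at 0.375, 0.259 and 0.147 FPKM in KMF (-2.01 ± 0.38, edgeR adjusted p = 0.00431). These related collagens, XV and XVIII, thus moved in opposite directions. Col4a3, mutated in Alport syndrome, rose from 3, 5 and 4 counts to 15, 26 and 21 counts (2.38 ± 0.48, edgeR adjusted p = 0.00558, but 0.254 by limma on the log2(FPKM + 1) scale), and stayed below 0.132 FPKM. Its exons overlap those of C430014B12Rik on the opposite strand by 289 bases. Nid1, the linker between laminin and collagen IV, fell from 24, 34 and 17 counts to 8, 8 and 5 counts (-1.77 ± 0.49, edgeR adjusted p = 0.0232), and the call was lost in 5 alternatives, while a filter at a mean of 1 CPM left the gene untested. The calls were lost by limma on the log2(FPKM + 1) scale (adjusted p = 0.135) and by edgeR without ID8 replicate 1, ID8 replicate 2, KMF replicate 2 or KMF replicate 3 (adjusted p = 0.0515, 0.0843, 0.0533 and 0.0942, with 0.0098 as the lowest over all alternatives).

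Of the 8 laminin chains listed, 5 rose and 3 fell, against 45.4% and 47.5% of all fitted genes. The 3 chains of highest mean FPKM in ID8 were among those that rose. Lama5 (chr2:180176373-180225859), the alpha5 chain of most adult epithelial basement membranes, was at 24.2, 17.8 and 19.9 FPKM in ID8 and at 47.0, 39.7 and 40.2 FPKM in KMF (log2 fold change 1.08 ± 0.13, edgeR adjusted p = 0.000421). Lamb2 (chr9:108479862-108490530), a beta chain, was the highest laminin in both lines, at 54.9, 40.1 and 52.7 FPKM in ID8 and at 84.0, 67.7 and 71.9 FPKM in KMF (0.64 ± 0.13, edgeR adjusted p = 0.00627). Lamc1 (chr1:153218922-153332786), the gamma chain of most laminins, was at 20.9, 17.4 and 18.9 FPKM in ID8 and at 40.9, 31.0 and 31.6 FPKM in KMF (0.90 ± 0.13, edgeR adjusted p = 0.00103). The 3 chains of laminin-521 therefore rose together. Lamb1 (chr12:31265234-31329644), the other widely used beta chain, fell from 20.2, 17.7 and 16.2 FPKM to 13.4, 10.2 and 10.04 FPKM (-0.64 ± 0.14, edgeR adjusted p = 0.00798). The log2 ratio of Lamb1 to Lamb2 FPKM went from -1.44 ± 0.26 to -2.74 ± 0.10 (SD, n = 3), and that of Lamb1 to Lamc1 from -0.08 ± 0.13 to -1.62 ± 0.03, both with a two-sided exact permutation p of 0.1. That of Lama5 to Lamc1 was 0.11 ± 0.10 in ID8 and 0.30 ± 0.09 in KMF (exact permutation p = 0.2). Of the 6 chain ratios compared, this was the only one in which the lines overlapped, and the Benjamini-Hochberg adjusted p was 0.12 for the others and 0.2 for this one.

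The other laminin chains described here were low in ID8. Lama1 (ENSMUSG00000032796, chr17:67697265-67822645), the alpha1 chain typical of the early embryo, had 440, 197 and 135 counts in ID8 and 0 in each KMF library. At a floor of 3 counts per library it was at least 81.6-fold lower in KMF (edgeR adjusted p = 0.000501), and a count of 0 allows up to 0.00949 to 0.0136 FPKM in these libraries. Lama3 (chr18:12333819-12583013) and Lamb3 (chr1:193301957-193343878) encode an alpha and a beta chain that assemble together in the laminin of epithelial hemidesmosomes. Lamb3 rose from 10, 3 and 0 counts to 87, 80 and 55 counts, a fold change of 18.1 (4.18 ± 0.72 on the log2 scale, edgeR adjusted p = 0.0027) that was 45.8 without ID8 replicate 1. Lama3 was at 0.579, 0.467 and 0.421 FPKM in ID8 and at 0.209, 0.148 and 0.137 FPKM in KMF (-1.54 ± 0.26, edgeR adjusted p = 0.00236). Lamb3 thus rose while its partner Lama3 fell, to a lower FPKM than that of Lamb3 in each KMF library.

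**Figure D3:**
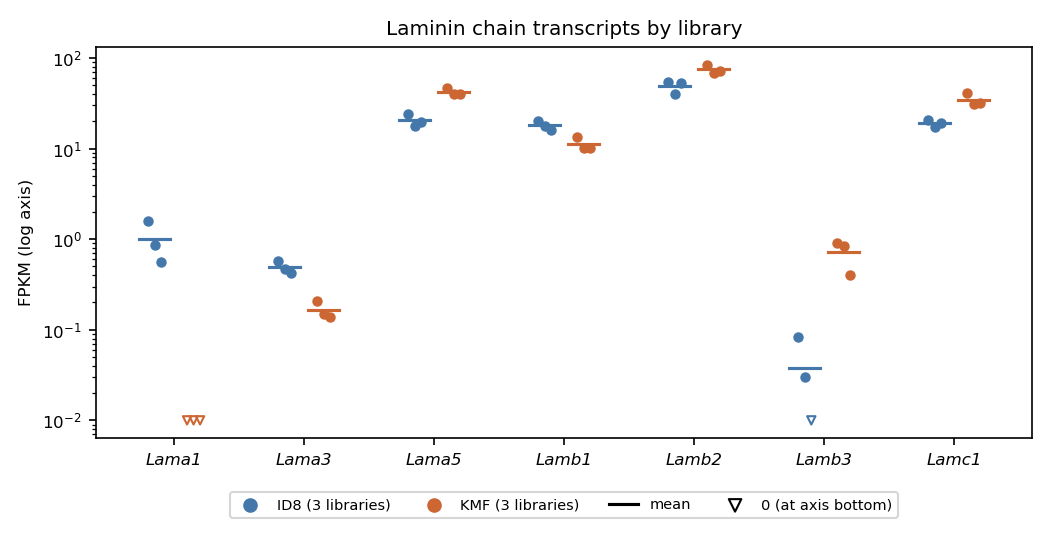
FPKM of the laminin chains described in the text, in each library (log axis), with ID8 and KMF as separate point colors, bars at each mean and open triangles for libraries with 0 counts. Lama5, Lamb2 and Lamc1 are higher in all 3 KMF libraries, Lamb1 is lower, and Lama1 has 0 counts in KMF against 0.553 to 1.57 FPKM in ID8.

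Elastic fiber proteins and latent TGF-beta binding proteins, which store the growth factor in the matrix, included 8 members, of which 4 of the 6 fitted were higher, 1 was lower and 1 was not called, against 45.4% higher among all fitted genes. With the low members Fbln5 and Fbln7 in the fit, by DESeq2 or without a filter, 5 were higher and 3 lower. Fbln1 (ENSMUSG00000006369, chr15:85205949-85286535), a fibulin that joins elastic fibers and basement membranes, had 18, 21 and 4 counts in ID8 and 1169, 837 and 1262 counts in KMF. In FPKM it was at 0.167, 0.238 and 0.0426 in ID8 and at 13.5, 9.90 and 10.4 in KMF, so every KMF library was well above ID8, and the fold change was 77.4 (6.27 ± 0.38 on the log2 scale, edgeR adjusted p = 2.73e-05). Its promoter window, at chr15:85205699-85205998 (plus), is shown because its fitted rise was second to that of Col6a3, with the E-box match in capitals.
Fbln1: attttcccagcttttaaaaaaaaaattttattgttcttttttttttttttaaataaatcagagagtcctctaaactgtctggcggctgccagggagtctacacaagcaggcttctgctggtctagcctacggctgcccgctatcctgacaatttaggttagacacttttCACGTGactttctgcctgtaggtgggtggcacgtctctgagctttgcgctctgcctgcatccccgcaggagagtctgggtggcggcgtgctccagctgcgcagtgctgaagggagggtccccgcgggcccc
Of the 37 members with a window, 1 (Fbln1) held this match, or 2.7%, against 7.84% of protein-coding windows.

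Fbln2, a related fibulin, was at 33.0, 33.6 and 30.6 FPKM in ID8 and at 111, 70.7 and 89.3 FPKM in KMF, the highest mean FPKM of the members in KMF (log2 fold change 1.52 ± 0.16, edgeR adjusted p = 0.000237). Ltbp4 was at 17.8, 14.9 and 16.3 FPKM in ID8 and rose to 55.25, 37.2 and 36.7 FPKM in KMF (1.44 ± 0.17, edgeR adjusted p = 0.00042). Ltbp3 moved the other way, from 103, 105 and 93.4 FPKM to 63.4, 49.95 and 47.3 FPKM (-0.87 ± 0.13, edgeR adjusted p = 0.00116). The family of TGF-beta binding proteins thus changed composition, with Ltbp3 falling while Ltbp4 rose. Ltbp1 was at 9.35, 7.998 and 6.59 FPKM in ID8 and at 18.45, 9.42 and 10.9 FPKM in KMF, and did not pass the threshold (0.73 ± 0.25, edgeR adjusted p = 0.0559), although it did in 5 of 15 alternatives, among them that without KMF replicate 2 (adjusted p = 0.0249, and 0.0162 to 0.157 over all). Fbn1, fibrillin-1 of the microfibrils, was at 0.252, 0.183 and 0.127 FPKM in ID8 and rose to 1.61, 0.994 and 0.760 FPKM in KMF (2.61 ± 0.36, edgeR adjusted p = 0.000897). Its exons overlap those of Gm9913 on the opposite strand over 2442 bases, so reads of the 2 genes may not be told apart. Fbln5 and Fbln7 were too low for the fit. Fbln5 had 14, 15 and 3 counts in ID8 and 0 in KMF, at least 3.49-fold lower at a floor of 3 counts per library. Fbln7 had 15, 15 and 9 counts in ID8 and 1, 0 and 0 in KMF, a ratio of ID8 to KMF of 39.3 (95% exact counting interval 6.65 to 1592).

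Lysyl oxidase-like enzymes, which cross-link collagen and elastin, also changed in composition. Loxl2 was at 6.43, 9.76 and 7.59 FPKM in ID8 and rose to 15.8, 19.1 and 21.05 FPKM in KMF (log2 fold change 1.27 ± 0.17, edgeR adjusted p = 0.000801). Loxl4 was at 1.22, 1.62 and 1.20 FPKM in ID8 and rose to 8.68, 7.59 and 7.47 FPKM in KMF (2.60 ± 0.16, edgeR adjusted p = 3.12e-05). Loxl3 fell from 2.67, 3.89 and 2.44 FPKM to 0.724, 0.634 and 0.698 FPKM (-2.09 ± 0.23, edgeR adjusted p = 0.000301). Loxl2 was thus the highest of the 3 in both lines, and Loxl4 passed Loxl3 in KMF. The exons of Loxl3 overlap those of Htra2 on the opposite strand by 369 bases.

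Adhesive glycoproteins, which bridge cells and matrix, fell for all 4 fitted members, against 47.5% of all fitted genes. Matn2, a matrilin that links matrix filaments, was at 23.2, 21.8 and 13.6 FPKM in ID8 and at 1.70, 1.45 and 0.943 FPKM in KMF (log2 fold change -3.82 ± 0.29, edgeR adjusted p = 5.77e-05). Thbs1, thrombospondin-1, an activator of latent TGF-beta, was at 12.03, 10.8 and 10.9 FPKM in ID8 and at 2.06, 1.22 and 1.23 FPKM in KMF (-2.87 ± 0.21, edgeR adjusted p = 5.2e-05). Both fell by far more than the spread between libraries. Thbs3 was at 1.37, 1.67 and 1.07 FPKM in ID8 and at 0.862, 0.719 and 0.642 FPKM in KMF (-0.85 ± 0.24, edgeR adjusted p = 0.0265), and the call was lost without ID8 replicate 1, ID8 replicate 2, KMF replicate 2 or KMF replicate 3 (adjusted p = 0.0768, 0.0922, 0.0829 and 0.097). Tnc, tenascin-C, was at 2.24, 1.61 and 0.932 FPKM in ID8 and at 0.812, 0.426 and 0.191 FPKM in KMF (-1.72 ± 0.52, edgeR adjusted p = 0.0331). It was 3.29-fold lower with all libraries and 5.08-fold lower without KMF replicate 1, and its call was lost without those same 4 libraries (adjusted p = 0.121, 0.0678, 0.104 and 0.0663). Matn4 was too low for the fit, with 9, 15 and 7 counts in ID8 and 0, 3 and 2 in KMF, a ratio of ID8 to KMF of 6.25 (95% exact counting interval 2.41 to 20.6).

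Both secreted proteoglycans of the list fell, against 47.5% of all fitted genes. Dcn, decorin, which coats collagen fibers, was at 55.5, 86.8 and 57.3 FPKM in ID8 and at 21.2, 11.1 and 10.6 FPKM in KMF (log2 fold change -2.18 ± 0.31, edgeR adjusted p = 0.001). Vcan, versican, which binds hyaluronan, was at 0.587, 0.437 and 0.395 FPKM in ID8 and at 0.181, 0.122 and 0.143 FPKM in KMF (-1.63 ± 0.26, edgeR adjusted p = 0.00168). Decorin was thus abundant and versican scarce in ID8, and both were lower in KMF.

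Of the 5 cell surface heparan sulfate proteoglycans, 3 fell, 1 rose and 1 was not called, while 47.5% of all fitted genes fell and 45.4% rose. Gpc4, a glypican, was nearly equal in the 3 ID8 libraries, at 70.9, 68.6 and 70.5 FPKM (a coefficient of variation of 1.74%), and was at 11.2, 11.7 and 5.91 FPKM in KMF (log2 fold change -2.83 ± 0.24, edgeR adjusted p = 9.81e-05). Gpc1 was at 78.3, 86.2 and 92.2 FPKM in ID8 and at 63.7, 45.3 and 48.3 FPKM in KMF (-0.67 ± 0.14, edgeR adjusted p = 0.00635), and its exons overlap those of Ankmy1 on the opposite strand by 977 bases. Gpc1 was the higher of these glypicans in both lines, and Gpc4 fell further. Gpc6 (chr14:116925297-117979529) had 5, 6 and 3 counts in ID8 and 228, 173 and 256 counts in KMF, a 46.9-fold rise (5.55 ± 0.31 on the log2 scale, edgeR adjusted p = 1.98e-05) to 1.43, 1.11 and 1.14 FPKM. Sdc2, syndecan-2, was at 28.6, 30.4 and 18.4 FPKM in ID8 and at 13.7, 16.3 and 8.94 FPKM in KMF (-0.95 ± 0.26, edgeR adjusted p = 0.0218), a call lost without ID8 replicate 1 or 2 (adjusted p = 0.0714 and 0.0661). Sdc3 was at 0.934, 0.975 and 0.564 FPKM in ID8 and at 1.94, 1.22 and 1.17 FPKM in KMF, and did not pass (0.85 ± 0.30, edgeR adjusted p = 0.0591), although it did in 3 of 15 alternatives (adjusted p 0.0249 to 0.183 over all). The name rule also took in Col4a3bp, which encodes a ceramide transfer protein and is not a matrix gene. It was at 15.9, 16.9 and 13.2 FPKM in ID8 and at 22.2, 21.1 and 21.1 FPKM in KMF (0.53 ± 0.11, edgeR adjusted p = 0.00572).

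To describe the composition of the listed matrix transcripts, FPKM was summed over the 56 members in each library. The sum was 843.5, 834.7 and 763.7 FPKM in ID8 and 773.6, 612.9 and 595.1 FPKM in KMF, a log2 difference of -0.31 (two-sided exact permutation p = 0.2). The summed level thus overlapped between the lines, while its makeup differed. Laminins made up 13.5% ± 1.77 of the sum in ID8 and 25.7% ± 0.881 in KMF (SD, n = 3), and elastic fiber proteins with TGF-beta binding proteins 19.4% ± 0.098 and 32.0% ± 2.61. Glypicans and syndecans went from 22.4% ± 1.30 to 11.75% ± 0.691, secreted proteoglycans from 8.22% ± 1.98 to 2.13% ± 0.544, and fibrillar collagens from 2.48% ± 0.238 to 0.424% ± 0.162. Basement membrane collagens held a similar share, 17.8% ± 1.73 and 16.5% ± 2.29. The sums of each role did not overlap between the lines (exact permutation p = 0.1, the smallest possible, or 0.109 after Benjamini-Hochberg adjustment over the 12 sums compared). Across members, 27 were above 1 FPKM on average in both lines, 9 in ID8 alone, 5 in KMF alone and 15 in neither.

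**Figure D4:**
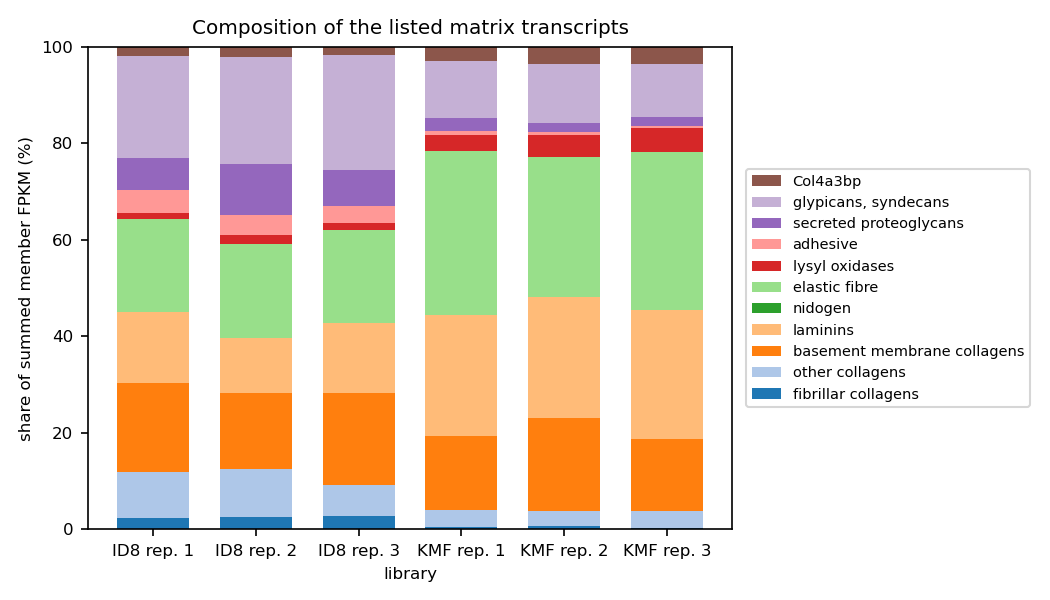
Share of the summed FPKM of the 56 members held by each role, in percent, for each of the 6 libraries. Laminins rise from 13.5% to 25.7% on average and elastic fiber and TGF-beta binding proteins from 19.4% to 32.0%, while glypicans and syndecans fall from 22.4% to 11.75%.

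Matrix transcripts varied more between libraries of a line than most genes. Among genes of at least 1 CPM, the median coefficient of variation was 21.3% for 43 members against 9.655% for all genes in ID8, and 23.62% for 45 members against 9.23% in KMF. The order of the libraries was alike for many members. KMF replicate 1 was the highest KMF library for 39 of 56 members (69.6%), against 32.0% of all listed genes, and KMF replicate 3 the lowest for 31 (55.4%), against 27.3%. In ID8, replicate 3 was the lowest library for 31 members (55.4%), against 37.9% of all genes, and the highest for 7. ID8 replicate 3 and KMF replicate 3 are also the highest passages of their lines, at 35 and 22, and with 3 libraries per line the part of passage was not tested. All 5 listed mesothelial markers were also lowest in ID8 replicate 3 of the ID8 libraries, whereas in KMF replicate 3 only Upk3b of the 5 was, and their part in the order was not tested. Taken against the ID8 mean, the median log2 difference of the members was -0.59, -0.85 and -1.03 in KMF replicates 1 to 3, so the median member was lower in each KMF library.

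**Figure D5:**
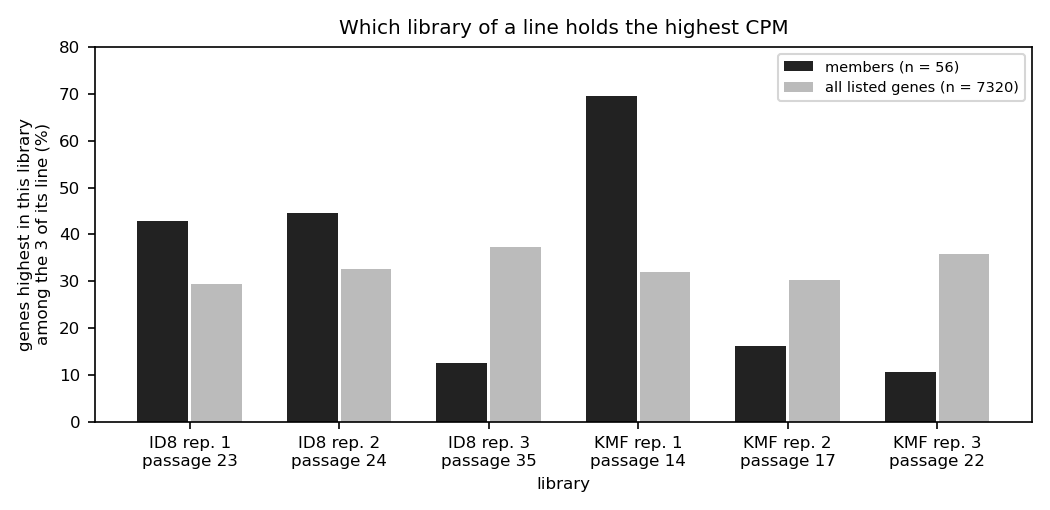
Percent of genes for which each library was the highest of its line, for the 56 members and for all listed genes. KMF replicate 1 is the highest for 69.6% of members against 32.0% of all genes, and ID8 replicate 3 for 12.5% against 37.4%.

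Among the promoter windows of all members with an entry, the GC box occurred in 24 of 37 (64.9%), against 46.2% of protein-coding windows, and the median GC content was 60.3% against 56.3%. The GC box was found in 7 of 12 windows of members that rose and in 12 of 17 of those that fell. The TATAAA motif occurred, anywhere in the window, in 4 of 37 (10.8%), against 12.6% of protein-coding windows, with all 4 among members that fell. The AP-1 motif was found in 2 (5.41% against 6.99%), both among members that fell, and the TCF/LEF motif in 0, against 3.22% of protein-coding windows.

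Enzymes that modify collagen and heparan sulfate, and receptors for matrix, were described from lists of known pathway genes. Of 24 collagen synthesis and processing genes 13 were listed, of which 8 rose, 4 fell and 1 was not called (median log2 fold change 0.44). Pcolce2, an enhancer of procollagen cleavage, rose from 0.224 to 9.47 FPKM on average (5.42 ± 0.35, edgeR adjusted p = 3.29e-05), and Leprel1, a collagen prolyl hydroxylase, rose by 2.04 ± 0.28. Colgalt2, a collagen galactosyltransferase, fell by 3.17 ± 0.39 on the log2 scale, and Leprel2, another prolyl hydroxylase, fell by 1.66 ± 0.23. All genes of the table were split into 45.4% higher and 47.5% lower, and the count that rose was 6 with upper quartile scaling and without ID8 replicate 1. Of 27 heparan sulfate genes 10 were listed, of which 2 rose, 7 fell and 1 was not called (median -0.49). The 2 that rose were Hpse, heparanase, from 0.458 to 20.8 FPKM (5.56 ± 0.23, edgeR adjusted p = 7.38e-06), and Sulf2, a 6-O-endosulfatase (2.14 ± 0.26). Hs6st2, a 6-O-sulfotransferase that adds sulfate, fell by 4.66 ± 0.26 on the log2 scale, and Sulf1, which acts like Sulf2, fell by 1.66 ± 0.16. Of 24 matrix receptors 8 were listed, and of the 7 fitted 5 rose, 1 fell and 1 was not called (median 1.85). Itga10, a collagen-binding integrin chain, rose from 0.602 to 23.55 FPKM (5.32 ± 0.16, edgeR adjusted p = 3.09e-06), Ddr2, a receptor kinase for fibrillar collagen, rose by 4.40 ± 0.19, and Itgb4 and Bcam, which bind laminin, rose by 2.16 ± 0.10 and 1.85 ± 0.13. Itgb8, which binds latent TGF-beta, fell by 2.61 ± 0.22. Of 11 microfibril partners 3 were listed, of which Efemp1 rose by 0.55 ± 0.17, and Hmcn1, a basement membrane protein, and Mfap1a, better known as a splicing factor, fell by 4.86 ± 0.49 and 0.37 ± 0.10. Efemp1 was called without ID8 replicate 3 but not without any of the other libraries, and 1 of the 2 that fell lost its call without ID8 replicate 1, ID8 replicate 3, KMF replicate 1 or KMF replicate 2.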

How the data were processed

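RNA from 3 ID8 and 3 KMF tumorsphere cultures, labelled as independent samples at different passages, was made into poly-A libraries without molecular identifiers, so p-values measure the spread between these samples and intervals cover counting error only. The paper's methods name TopHat2 for mapping, while the submitters' processing notes list CASAVA 1.8, STAR 2.5, DESeq2 and the build mm10. The counting tool, annotation release and strand use are not given in the sources used here, and 19 members share exon bases with a gene on the opposite strand.

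The deposited table holds the authors' raw count and FPKM per gene and library and the listed gene length. The deposited signal of each line, the authors' mean normalized count, the deposited log2 fold change and the authors' p-value with its adjustment are results of the authors' own comparison, whose values are neither printed nor compared here. Only the ranks of the deposited p-values were used, to recover the 17359 genes they had been adjusted over. No listed gene had an adjusted value at or over 0.05.

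Library totals were recovered from the count, FPKM and length. Counts of all 7320 genes entered edgeR 4.0.16 (R 4.3.3) with TMM scaling, its default filter on low counts and the quasi-likelihood test, and a call was an adjusted p below 0.05. In simulated counts of the 7320 genes with 200 changed by 1 on the log2 scale, 79.7% of those that could be fitted were recovered and 2 unchanged genes were called. Ratios and sums of FPKM were compared by two-sided exact permutation tests. Motifs were searched in RefSeq promoter windows, which 37 members had. Genes named with every library were, in each role, the 3 of highest mean FPKM and the 3 with the largest called change, while the others were added after their values were seen. In each pathway list, the 2 largest called changes each way were named, and Itgb4 and Bcam were added after their values were seen. Alternatives were limma 3.58.1, DESeq2 1.42.0, other filters and scalings, a replicate block and leaving out each library. The members and lists were chosen with earlier results of these data known. A single member is counted in the totals and otherwise not reported here.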

Additional observations from a re-analysis of the deposited data

How the results depend on the processing

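None of the 51 fitted members changed direction in the 15 alternatives that tested it (14 for Col4a3 and Nid1, which a mean of at least 1 CPM left out), and 40 kept their call in all 15. Members called higher numbered 17 to 21 and lower 24 to 34, against 19 and 29. With each library left out, the share of all fitted genes called was 73.8% to 83.1%, against 92.9%, so calls were lost across the table. The median log2 fold change of -0.85 was -1.09 by DESeq2 and -0.44 by limma on log2(FPKM + 1). Upper quartile scaling moved the median of all genes by -0.11. With only genes of a mean of at least 1 CPM tested, the median of all genes was 0.21, against -0.23, and that of the members -0.87.

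Counts per role or list moved as follows. Elastic fiber and TGF-beta binding proteins that fell, 1, were 3 by DESeq2 and without a filter, and 1 to 3 in the fits without 1 library, as Fbln5 and Fbln7 entered the fit. Glypicans and syndecans that rose, 1, were 2 by DESeq2 and with adjustment over listed genes only. Basement membrane collagens that rose, 2, were 1, and the linker Nid1, 1, was 0, by limma on log2(FPKM + 1) and with a mean of at least 1 CPM. With each library left out they were 1 to 2 and 0 to 1. Adhesive glycoproteins that fell, 4, were 2 to 4 with each library left out. Matrix receptors that fell, 1, were 2 by DESeq2, with adjustment over listed genes only, library totals alone, limma on log2(FPKM + 0.1) or log2(FPKM + 1), a mean of at least 1 CPM, no filter or upper quartile scaling. Microfibril partners that rose, 1, were 0 with library totals alone, limma on log2(FPKM + 1), a mean of at least 1 CPM or upper quartile scaling. With each library left out, 0 to 1 of them rose and 1 to 2 fell.

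With the replicate block, 21 members were higher and 30 lower, 2 glypicans and syndecans rose and 0 microfibril partners rose. The numbers were not taken to pair samples, since deviations of same-numbered libraries correlated at 0.0737, -0.0876 and 0.108.

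The table holds only genes that differed on these libraries, so shares of calls describe the table. Low counts left Fbln5, Fbln7, Matn4, Col27a1 and Col8a2 out of the fit.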
